A study of Mus musculus with 9 samples.

Results

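Neuropeptide genes encode precursor proteins that neurons cut into short secreted signals. The 10 genes described here, Tac1, Trh, Prok2, Penk, Pdyn, Sst, Npy, Cck, Nts and Pnoc, were taken by name from the comparison tables of an RNA sequencing experiment on mouse cortex, which list 40437 genes in all, and each of the 10 was present once. They were selected on the log2 fold changes against control that both comparisons had already given, so those values are a description here, and the p-values printed beside them place each gene among all genes and support nothing further.

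The embryos differed at Mm-HAR1984, the mouse form of a human accelerated region, DNA that stayed much the same in other vertebrates but gathered many changes in human evolution. Controls were Mm/Mm, with mouse DNA in each copy. Knock-ins, labelled CRISPR KI, were Hs/Mm and so kept 1 mouse copy beside the human one, and deletions, labelled CRISPR KO, were del/del. Each genotype had 3 libraries of embryonic cortex, labelled E16.5 except for deletion replicate 3, labelled E16.6, and all carried the same batch label. The labels also call the cells neural progenitors, and the projection neuron genes Neurod6 (mean normalised count 35817) and Tbr1 (15372) were counted beside the progenitor genes Nes (11566), Eomes (8649, of intermediate progenitors), Sox2 (4937) and Pax6 (3518), all chosen after their values were seen. Strain, founder lines and any pooling of embryos were not given in the sources used here, and the tables hold no measurement of the altered element itself that could check the genotypes.

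A neuropeptide is made in the endoplasmic reticulum as a longer precursor, packed into dense-core granules, cut there by prohormone convertases, often amidated, and released to act on G protein-coupled receptors. In the late embryonic forebrain these genes are known as markers of cell classes: Tac1, Penk and Pdyn of striatal projection neurons, Sst and Npy of interneurons that migrate from the ganglionic eminences into the cortex, and Trh of hypothalamic neurons. In bulk tissue, fewer cells of a type and less RNA per cell cannot be told apart.

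Values per library were not used, because the columns headed FPKM did not hold them: each value was the gene's mean over all libraries times a factor scattered around 1 (SD of the factor 0.1 over 235530 values in the deletion table). The level of each gene in each genotype was instead worked out from the deposited baseMean, the mean normalised count over all libraries, together with both log2 fold changes. The spread between libraries of a genotype, as a coefficient of variation (CV), was worked out from the standard error (SE) of the fold change. The dispersion, the square of this CV, differed by less than 1% between the deletion and the knock-in table for 99.99% of 18928 genes. The CV is thus 1 fitted value per gene shared by the genotypes, and the relative SEs of means below rest on it. The spread within any single genotype was not measured. All log2 fold changes below are the deposited Wald statistic times its SE and rest on 3 libraries per genotype.

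Tac1, Trh and Prok2 stood lowest against control in the deletion. Tac1 encodes the precursor of substance P and neurokinin A, Trh that of thyrotropin-releasing hormone, and Prok2 prokineticin 2, a secreted protein that guides olfactory bulb interneurons. Of the 10 genes, these 3 passed an adjusted p of 0.05 in the test across all genes, all lower, where 0.475% of the 18952 genes tested were called lower. In the knock-in 0 of the 10 passed, where 0.0471% of 21222 genes were called lower, and 2 had an unadjusted p under 0.05, Tac1 and Prok2. In log2 fold change 8 of the 10 lay below 0 in the deletion, against 51.7% of all genes tested, with a median of -0.97 against -0.01 for all genes. Without Trh, Prok2 and Pdyn, whose mean normalised count was under 50, that deletion median was -0.20. In the knock-in all 10 lay below 0, against 49.0% of all genes, with a median of -0.66 against 0.00. Both comparisons share the control libraries, so the knock-in values do not repeat the deletion values independently.

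**Figure D1:**
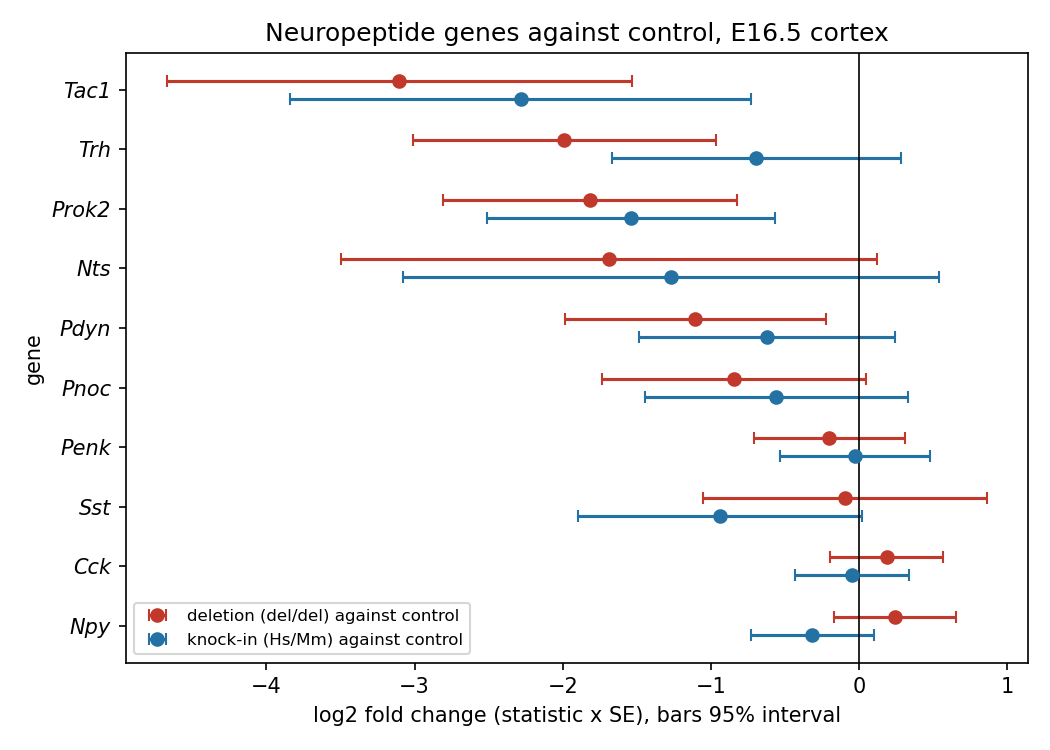
Log2 fold change of each neuropeptide gene against control (x axis), with bars for the 95% interval, for deletion (red) and knock-in (blue) embryos. Intervals lie wholly below 0 for Tac1, Trh, Prok2 and Pdyn in the deletion and for Tac1 and Prok2 in the knock-in, and they reach across 0 for the other genes.

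Tac1 (ENSMUSG00000061762, chromosome 6, 7554879 to 7565834 of mm10, plus strand) had a mean normalised count of 246 in control, 28.7 in deletion and 50.6 in knock-in embryos. Control thus stood above both altered genotypes, with a relative SE of 38.6% on its mean. The log2 fold change was -3.10 in the deletion (SE 0.80, 95% interval -4.67 to -1.53, adjusted p = 0.0203 by the Wald test across all genes), or 11.6% of the control level. In the knock-in it was -2.28 (SE 0.79, 95% interval -3.84 to -0.73, adjusted p = 0.352), or 20.5% of control. Tac1 had the lowest value of the 10 genes in either comparison.

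Trh (ENSMUSG00000005892, chromosome 6, 92242061 to 92244650, minus strand) had a mean normalised count of 62.4 in control, 15.7 in deletion and 38.6 in knock-in embryos. The deletion level was 25.2% of control, a log2 fold change of -1.99 (SE 0.52, adjusted p = 0.0244 by the Wald test). The knock-in level lay between the others, at -0.69 (SE 0.50, 95% interval -1.67 to 0.28). The difference between the altered genotypes, deletion minus knock-in, was -1.30 (SE 0.72, 95% interval -2.71 to 0.12), which did not pass.

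Prok2 (ENSMUSG00000030069, chromosome 6, 99711299 to 99726392, minus strand) was the most weakly counted of the 10, at 50.6 in control, 14.4 in deletion and 17.4 in knock-in embryos. Both altered genotypes were close to each other and below control, at -1.82 (SE 0.51, adjusted p = 0.0404 by the Wald test) and -1.54 (SE 0.50, adjusted p = 0.266). Adjusted over every gene with a statistic, its deletion value was not called (adjusted p = 0.0821). Counting error alone would give an SE of 0.25 in the deletion, so more of the SE came from spread between libraries than from low counts. The annotation places the gene model Gm26748 on the other strand within Prok2, with a mean normalised count of 3.29, and whether counting used strand was not given in the sources used here.

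These 3 genes share a chromosome with Npy, so 4 of the 10 lie on chromosome 6, though far apart. Genes tested within 500 kb of any of the 10 numbered 81 in the deletion, of which 1 was called, and 92 in the knock-in, of which 0 were called. The deletion count is near the background of 0.976% of all genes. The called neighbour was Bcl6, a transcriptional repressor gene near Sst, at 0.92 (SE 0.26, adjusted p = 0.0469 by the Wald test) in the deletion. Outside these windows on chromosome 6, the markers Dlx5 (-1.06) and Dlx6 (-1.98), given further on, were called lower in the deletion. Col1a2 (1.01) and Slc6a13 (1.05), also on chromosome 6, were called higher. Their distance from the 10 genes was not worked out, so the neighbour count describes 500 kb only.

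The promoters of the 3 genes that passed in the deletion are shown beside that of Sst, whose value there was near 0, so that their letters can be compared. Each is the 250 bases before the RefSeq start (GRCm38.p6), 5′ to 3′ on the gene's strand, with motifs in capitals.
Tac1, chr6:7554811-7555060, plus strand: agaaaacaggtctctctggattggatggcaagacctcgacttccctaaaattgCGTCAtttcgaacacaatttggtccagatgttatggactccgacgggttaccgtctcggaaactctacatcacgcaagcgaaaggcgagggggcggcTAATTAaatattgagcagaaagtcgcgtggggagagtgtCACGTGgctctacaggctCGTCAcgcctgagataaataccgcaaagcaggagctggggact
Trh, chr6:92244651-92244900, minus strand: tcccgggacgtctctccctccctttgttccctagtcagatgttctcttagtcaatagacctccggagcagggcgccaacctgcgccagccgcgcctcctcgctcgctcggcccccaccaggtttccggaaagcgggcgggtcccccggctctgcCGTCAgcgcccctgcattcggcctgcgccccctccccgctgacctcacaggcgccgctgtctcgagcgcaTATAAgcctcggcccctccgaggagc
Prok2, chr6:99726393-99726642, minus strand: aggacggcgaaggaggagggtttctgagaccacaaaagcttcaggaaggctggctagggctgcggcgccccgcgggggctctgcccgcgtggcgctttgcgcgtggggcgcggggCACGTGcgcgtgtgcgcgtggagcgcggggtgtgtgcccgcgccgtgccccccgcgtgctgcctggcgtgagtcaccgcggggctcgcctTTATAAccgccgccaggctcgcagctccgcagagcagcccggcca
Sst, chr16:23890845-23891094, minus strand: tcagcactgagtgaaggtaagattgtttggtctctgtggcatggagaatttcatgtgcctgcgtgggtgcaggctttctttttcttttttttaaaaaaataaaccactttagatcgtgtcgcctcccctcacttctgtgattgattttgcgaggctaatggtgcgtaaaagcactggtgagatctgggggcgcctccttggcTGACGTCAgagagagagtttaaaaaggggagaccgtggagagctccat
The GENCODE annotation starts Tac1 and Sst upstream of the RefSeq start, inside the window shown.

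The motifs searched, on both strands, were the cAMP response element TGACGTCA, its shorter form TGACG or CGTCA (contained in the former), the homeodomain letters TAATTA, the E-box CACGTG, and the TATA letters TATAA or TTATA. Promoters of 8 of the 10 genes were matched in the RefSeq table, 9 windows in all, and Penk and Pnoc were not matched. Sst alone of these held TGACGTCA, ending 41 bases before the start, a site known for its role in cAMP-driven somatostatin transcription, and 1.55% of 32851 promoter windows held it. Tac1 alone held TAATTA, 100 to 95 bases before the start, against 4.84% of all windows. An E-box was found in Tac1, Prok2 and Cck, against 6.02% of all windows. TATA letters were found in Trh and Prok2, against 22.8% of all windows. The shorter TGACG form was found in Tac1, Trh, Cck, Nts and Sst, against 17.8%. No motif searched was found in all 3 of Tac1, Trh and Prok2.

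The opioid family comprises Pdyn, the dynorphin precursor, Penk, the enkephalin precursor, and Pnoc, the nociceptin precursor. Pdyn (chromosome 2, 129686565 to 129699844) had a mean normalised count of 61.1 in control, 28.4 in deletion and 39.7 in knock-in embryos. Its log2 fold change was -1.10 in the deletion (SE 0.45, 95% interval -1.99 to -0.22, adjusted p = 0.314 by the Wald test) and -0.62 in the knock-in (SE 0.44). Pnoc (chromosome 14, 65400673 to 65425472) stood at 154 in control, 85.9 in deletion and 105 in knock-in embryos. Its values were -0.84 (SE 0.45) and -0.56 (SE 0.45), with intervals that reach 0.05 and 0.33.

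Penk (chromosome 4, 4133531 to 4138819) had a mean normalised count of 138 in control, 120 in deletion and 136 in knock-in embryos. Its log2 fold change was -0.20 in the deletion (SE 0.26, 95% interval -0.71 to 0.31) and -0.03 in the knock-in (SE 0.26, 95% interval -0.54 to 0.48). A second gene model, A830012C17Rik, overlaps Penk on the other strand with a mean normalised count of 2.79.

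Sst, Npy and Cck, the peptides of cortical interneurons and, for Cck, also of projection neurons, were among the most abundant of the 10. Sst (somatostatin, chromosome 16, 23889573 to 23890958) had a mean normalised count of 1482 in control, 1386 in deletion and 772 in knock-in embryos. The knock-in mean was the lowest and the other means lay close together, with log2 fold changes of -0.10 (SE 0.49, 95% interval -1.05 to 0.86) and -0.94 (SE 0.49, 95% interval -1.90 to 0.02). Npy (neuropeptide Y, chromosome 6, 49822710 to 49829507) stood at 655 in control, 776 in deletion and 526 in knock-in embryos. Its values had opposite signs, 0.25 (SE 0.21) in the deletion and -0.31 (SE 0.21) in the knock-in, and the difference was 0.56 (SE 0.30, 95% interval -0.02 to 1.14).

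Cck (cholecystokinin, chromosome 9, 121489824 to 121495694) had the smallest SEs of the 10, with 328 in control, 373 in deletion and 317 in knock-in embryos. Its log2 fold changes were 0.19 (SE 0.19) and -0.05 (SE 0.20). The intervals of -0.19 to 0.57 and -0.43 to 0.34 bound any difference of Cck from control to less than 1 on the log2 scale.

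Nts, the precursor of neurotensin, combined a large difference with a large spread. It had a mean normalised count of 953 in control, 296 in deletion and 395 in knock-in embryos (chromosome 10, 102481756 to 102490486). The control mean was the highest, but its relative SE was 45.2%. The log2 fold changes of -1.69 in the deletion (SE 0.92, 95% interval -3.50 to 0.13) and -1.27 in the knock-in (SE 0.92) did not pass. Trh, with a deletion value of -1.99, had an SE of 0.52.

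**Figure D2:**
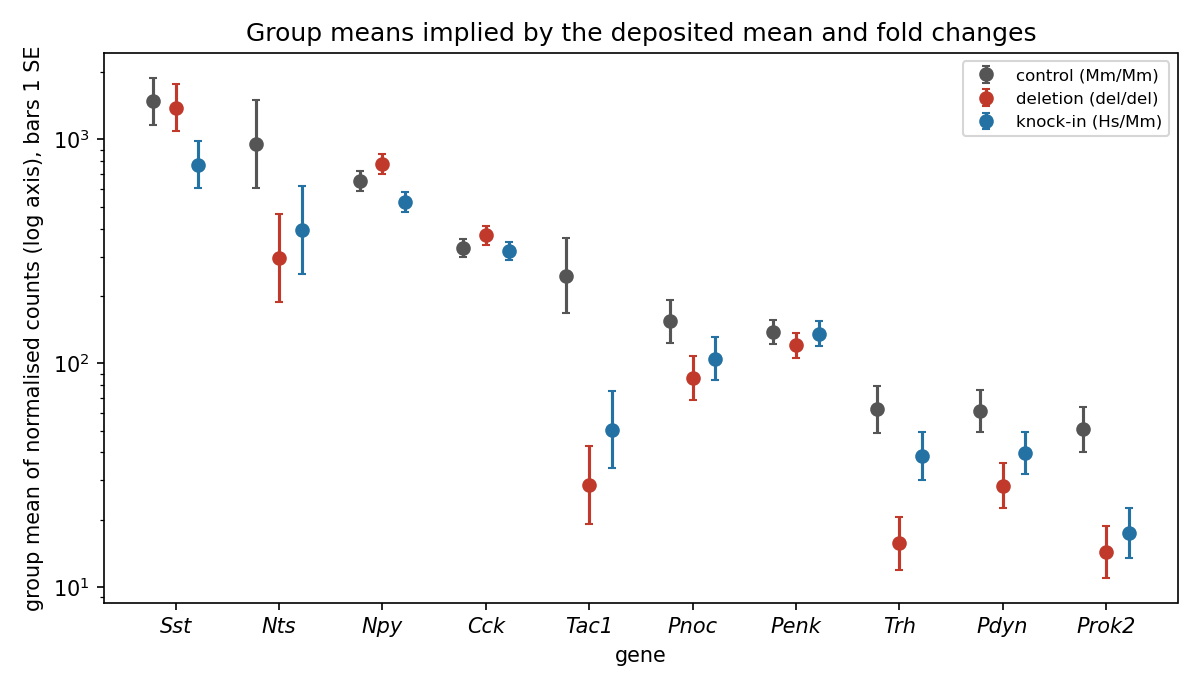
Mean normalised count of each neuropeptide gene (log axis) in control (grey), deletion (red) and knock-in (blue), worked out from the deposited mean and fold changes, with bars of 1 SE. Control is highest for 8 of the 10 genes, while for Npy and Cck the deletion is highest.

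Between the altered genotypes, 0 of the 10 genes differed past the threshold. This test divided deletion minus knock-in by an SE that adds both variances, which is too large because the control is shared, and it called 1 of 18928 genes. At an unadjusted p under 0.05 it gave 405 genes, none of them among the 10. With the SE taken from the altered genotypes alone, chosen after the data were seen, 7 genes were called and again 0 of the 10, with the smallest unadjusted p those of Npy (0.00787, adjusted p = 0.306) and Trh (0.0144, adjusted p = 0.363), both by the normal test across all genes.

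Per kilobase of annotated exon, control levels ran from Sst (2055 normalised counts per kb) through Npy (1156), Nts (763), Cck (251), Penk (84.6), Tac1 (72.5), Pnoc (71.4), Trh (45.1) and Prok2 (26.4) to Pdyn (21.2). Sst was 1.78 times Npy (95% interval 1.07 to 2.96), Nts was 3.04 times Cck (1.23 to 7.53) and Cck was 2.97 times Penk (2.17 to 4.05). The intervals of all other neighbours in this order held a ratio of 1, so Npy and Nts, and the genes from Penk to Pdyn taken in turn, were not separated. In the deletion the per-kb level of Tac1 was 8.44, below that of Pdyn (9.84) and next to that of Prok2 (7.49).

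The genes also differed in how much the libraries of a genotype varied. The CV was 78.3% for Nts and 66.6% for Tac1, against medians of 10.9% and 17.8% for genes within 2-fold of their level. Sst, the most abundant of the 10, had a CV of 41.4% against 8.83%, higher than 99.2% of 5663 genes of like level. Trh (39.7%), Prok2 (37.4%), Pnoc (37.3%) and Pdyn (34.7%) formed a middle group. Penk (20.3%), Npy (17.4%) and Cck (15.7%) were lowest. All 10 lay above the median of genes of like level, and 5 above the 90th percentile.

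**Figure D3:**
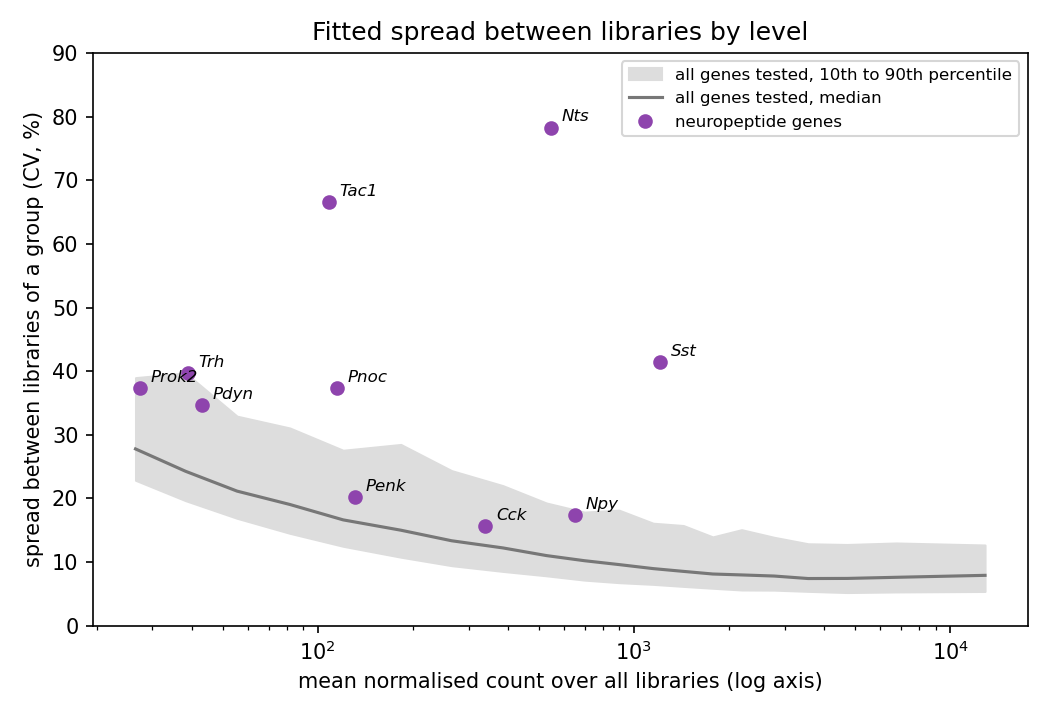
Fitted spread between libraries, shared by the genotypes (CV in percent, y axis), against mean normalised count (log axis) for the 10 neuropeptide genes (purple), with the median (line) and the 10th to 90th percentile (grey) of all genes tested. Nts, Tac1 and Sst stand far above the grey band, while Penk, Cck and Npy lie inside it.

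No receptor gene for these peptides passed the threshold. Of 26 receptor genes, all were in the tables, 15 were tested in deletion and 20 in knock-in embryos, and 0 passed in either, where 0.976% and 0.137% of all genes were called in either direction. At an unadjusted p under 0.05 there were 5 in the deletion, against 9.50% of all genes tested, and 1 in the knock-in, against 6.92%. The 5 lay on both sides of 0, with Npy1r (0.70, SE 0.23), a neuropeptide Y receptor, Ntsr1 (0.62, SE 0.21), a neurotensin receptor, and Sstr4 (1.18, SE 0.46), a somatostatin receptor, above it and Tacr1 and Trhr below. The median log2 fold change was 0.04 in deletion and -0.10 in knock-in embryos. The substance P receptor gene Tacr1 had -0.64 in the deletion (SE 0.28, adjusted p = 0.399 by the Wald test) and -0.57 in the knock-in (SE 0.28). Its relatives Tacr3 (-0.08, SE 0.43, in the deletion) and Tacr2 (mean normalised count 1.12, not tested) gave no call. Trhr, the receptor for thyrotropin-releasing hormone, had -0.50 (SE 0.24) and -0.09 (SE 0.24). The prokineticin receptor genes had values on both sides of 0, Prokr1 with -0.21 (SE 0.25) and 0.37 (SE 0.25), and Prokr2 with 0.12 (SE 0.27) and -0.29 (SE 0.28).

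The best counted receptor genes were Sort1, a sorting receptor that also binds neurotensin (mean normalised count 8517), Oprl1, the nociceptin receptor (1871), and Sstr2, a somatostatin receptor (1735). Their deletion values were 0.04 (SE 0.11), -0.22 (SE 0.14) and -0.12 (SE 0.17), and their knock-in values 0.06, -0.23 and 0.03. The opioid receptor genes Oprm1, Oprk1 and Oprd1 had mean normalised counts of 17.1, 10.8 and 7.59 and no adjusted p in the deletion, where the log2 fold change was -1.53 (SE 0.71), -2.33 (SE 0.90) and -0.75 (SE 0.67).

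The enzymes that cut and modify precursors gave no call either. All 17 were tested in both comparisons, 0 passed in either, and the medians were 0.06 and -0.01. With 0.976% (deletion) and 0.137% (knock-in) of all genes called, a count of 0 among 17 is near the background. At an unadjusted p under 0.05 there were 0 in deletion and 2 in knock-in embryos, against 9.50% and 6.92% of all genes tested. The 2 were Pcsk1 (-0.57, SE 0.23), a prohormone convertase, and Pcsk1n (-0.44, SE 0.16), the precursor of its inhibitor. The best counted were Cpe, the carboxypeptidase that trims cut peptides (10994, deletion -0.05, SE 0.15), Pam, the amidating enzyme (5508, deletion 0.05, SE 0.08), and Cpd (3790, deletion 0.01, SE 0.08).

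Among 10 dense-core granule genes, all tested, Scg2 fell in the deletion by 0.68 in log2 fold change, with an SE of 0.19 and adjusted p = 0.0406 (Wald test), and was no longer called when p was adjusted over every gene with a statistic (adjusted p = 0.0825). Scg2 encodes secretogranin II, a granule protein that is itself the precursor of secretoneurin. Its mean normalised count was 1210 in control, 758 in deletion and 747 in knock-in embryos, where the value was -0.70 (SE 0.19, adjusted p = 0.0826). In the deletion 9 of the 10 lay below 0 with a median of -0.22, and in the knock-in 10 of the 10 with a median of -0.26, beside 51.7% and 49.0% of all genes below 0 and 0.475% called lower in the deletion. The best counted, Cadps (-0.31, SE 0.15), Scg3 (-0.16, SE 0.12) and Chga (-0.09, SE 0.12), did not pass in the deletion.

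Of 13 peptidase genes, all tested, Anpep and Enpep rose in the deletion and 0 passed in the knock-in, with medians of 0.07 in both and 0.976% of all genes called in the deletion. Anpep, aminopeptidase N, had 0.97 (SE 0.25, adjusted p = 0.0160 by the Wald test), and Enpep, aminopeptidase A, had 1.26 (SE 0.29, adjusted p = 0.00351). Both are also made by blood vessels, and the vessel and meningeal markers given below were higher too, but a link between these was not tested. The authors' deposited table lists 1.63 as the deletion log2 fold change of Enpep, which its own statistic and SE do not give, and likewise -1.81 for Sp8, -1.77 for Dlx2 and -1.58 for Dlx5, markers described further on. Trhde, the enzyme that degrades thyrotropin-releasing hormone, had -0.81 (SE 0.27, adjusted p = 0.123) in the deletion and -0.45 (SE 0.27) in the knock-in. The best counted, Lnpep (0.07), Prep (0.01) and Ide (-0.01), were near 0 in the deletion.

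Of 51 other neuropeptide and peptide hormone genes, 46 were listed in the deletion table and 13 of these were tested. Adm, the precursor of the vasodilator adrenomedullin, was the only one to pass, with 0.99 in the deletion (SE 0.23, adjusted p = 0.00514 by the Wald test) and 0.17 in the knock-in (SE 0.24). Tested members numbered 16 in the knock-in, and 0 passed. The share of all genes called in either direction was 0.976% (deletion) and 0.137% (knock-in). The best counted were Apln (447, deletion 0.29, SE 0.19), Edn3 (400, deletion 0.64, SE 0.30) and Adcyap1 (339, deletion 0.44, SE 0.30). Tac2, a relative of Tac1, had -0.28 (SE 0.24) in the deletion and -0.44 (SE 0.24) in the knock-in. Gal, the galanin precursor, had a mean normalised count of 24.4 in control, 5.81 in deletion and 7.28 in knock-in embryos, with log2 fold changes of -2.07 (SE 0.65, not tested) and -1.74 (SE 0.63, adjusted p = 0.386 by the Wald test). In the authors' deposited table its knock-in adjusted p is 3.70e-04, a call. The median over the tested genes, which in the deletion leaves Gal out, was 0.32 in deletion and -0.04 in knock-in embryos. The medians of the 10 neuropeptide genes, -0.97 and -0.66, come from genes selected on these values, so a lower median there was set by the selection.

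**Figure D4:**
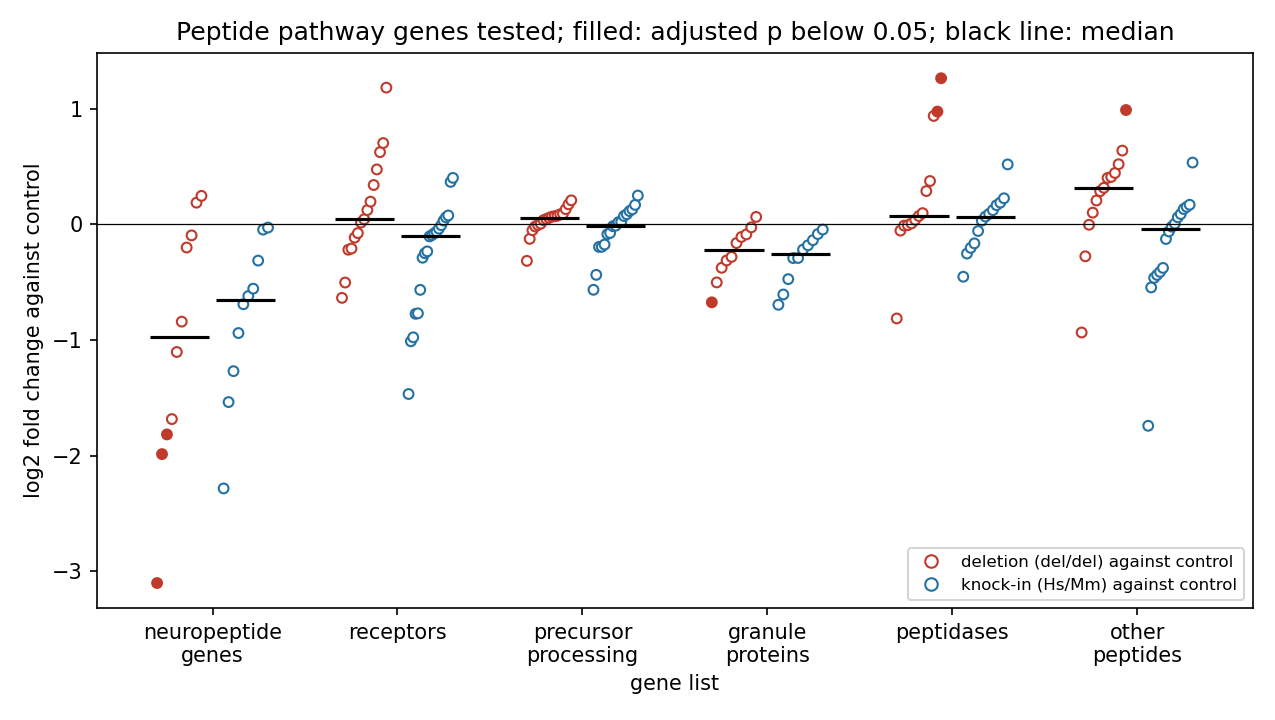
Log2 fold change against control of each tested gene (circles) for deletion (red) and knock-in (blue), by gene list, with the median as a black line and genes past an adjusted p of 0.05 filled. The medians are -0.97 and -0.66 for the 10 neuropeptide genes, -0.22 and -0.26 for the granule genes and within 0.10 of 0 for the receptor, processing and peptidase genes. The deletion median of the neuropeptide genes is -0.20 without the 3 genes under a mean count of 50. The neuropeptide genes were selected on these log2 fold changes, so their medians cannot be weighed against those of the other lists.

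Markers of the cells that hold these peptides were measured beside them, and their part in the neuropeptide values was not tested. Of all genes tested in the deletion, 0.976% were called in either direction, 0.475% were called lower and 51.7% lay below 0. Of the 12 markers called there, 5 were called when p was adjusted over every gene with a statistic. Of the 18 striatal and lateral ganglionic eminence markers, 17 were tested in the deletion, 15 lay below 0 with a median of -0.79 (knock-in -0.44), and 3 fell, namely Gsx2 (-1.51, SE 0.42), Sp8 (-0.81, SE 0.17) and Meis2 (-0.38, SE 0.11), all transcription factor genes. The summed level of the 18 was 24966 in control, 17124 in deletion and 19744 in knock-in embryos, and none was at 0. Markers of the striatal neurons that make Tac1 and Pdyn had unlike values in the deletion, Drd1 with -0.03 (SE 0.26) and Ebf1 with -1.42 (SE 0.47, adjusted p = 0.133 by the Wald test). So did those of the neurons that make Penk, Drd2 with -1.46 (SE 0.55, adjusted p = 0.236) and Adora2a with 0.07 (SE 0.23). Isl1, a striatal and ventral forebrain factor, had -3.06 with an SE of 1.36 and a CV of 115%, a wider spread between libraries than that of Tac1 or Nts. In the knock-in 17 of 18 lay below 0 and 0 passed, beside 49.0% of all genes below 0 and 0.137% called in either direction.

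Of 17 interneuron markers, all tested, 4 fell in the deletion, Dlx5 (-1.06, SE 0.25), Dlx2 (-0.77, SE 0.18), Dlx1 (-0.75, SE 0.20) and Dlx6 (-1.98, SE 0.55). Of all genes tested there, 0.475% were called lower. The summed level of the 17 stood at 83.5% (deletion) and 83.1% (knock-in) of control, and none was at 0. Lhx6, the factor that marks the precursors of Sst interneurons, had -0.09 (SE 0.24) in the deletion and -0.26 (SE 0.24) in the knock-in, beside -0.10 and -0.94 for Sst. Nkx2-1, of the medial ganglionic eminence, had -4.04 (SE 1.34, adjusted p = 0.126 by the Wald test) with a CV of 113%.

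All 12 meningeal and vessel markers lay above 0 in the deletion, beside 9156 of the 18952 genes tested. Of the 12, 5 rose, among them Flt1 (0.65, SE 0.15), Col1a2 (1.01, SE 0.26), Slc6a13 (1.05, SE 0.28) and Foxc1 (0.82, SE 0.23). Among all genes tested, 95 were called higher. The summed level of the 12 was 178% of control, and 142% in the knock-in. Of the 9 projection neuron markers 0 passed, at 115% and 106% of control, and of the 7 Cajal-Retzius markers 0 passed, at 106% and 104%. Hypothalamic and thalamic markers bear on Trh, and only 4 of 11 were tested, with 0 called in either comparison. At an unadjusted p under 0.05 there were 2 in the deletion, against 9.50% of all genes tested. The summed level of the 9 genes listed in both tables stood at 79.8% and 96.1% of control, a sum made up mostly of Lhx9, Tcf7l2 and Rora. The factor genes Hmx2, Sim1, Six6, Barhl1 and Nr5a1 of this list were too weakly counted to be tested. Hmx2 stood at 18.5 in control, 1.34 in deletion and 1.80 in knock-in embryos (log2 fold changes -3.78, SE 1.70, and -3.36, SE 1.66). Sim1 stood at 10.8, 2.02 and 2.05 (-2.41, SE 1.24, and -2.40, SE 1.24), and Six6 at 10.6, 1.69 and 4.95 (-2.64, SE 1.15, and -1.09, SE 1.03). Barhl1 stood at 9.68, 7.77 and 5.08 (-0.32, SE 0.69, and -0.93, SE 0.72). Nr5a1 went the other way, at 0.951, 2.78 and 1.35 (1.55, SE 1.70, and 0.50, SE 1.78). The thalamic factor gene Gbx2 had -4.43 (SE 1.29, adjusted p = 0.0564 by the Wald test) in the deletion at a mean normalised count of 16.1, and the adjusted p of 0.0498 in the authors' deposited table makes it a call.

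The knock-in calls for Tac1 and Prok2 depended on which deposited column was read. The authors' deposited table gives a knock-in p of 4.04e-06 for Tac1 and 1.98e-06 for Prok2, with an adjusted p of 3.36e-04 and 2.52e-04, and both genes stand in the authors' list of 15 genes in common to both comparisons. Their statistics of -2.87 and -3.09 in the same table give a 2-sided normal p of 0.00404 and 0.00198, 1000 times larger. The same ratio of 1000 held for 923 of the 930 knock-in genes whose deposited p and statistic disagreed, and those 930 were also the genes with a deposited adjusted p under 0.05. By the adjusted p in the authors' deposited table, only Tac1 and Prok2 (2 of the 10 genes) were called in the knock-in, where 4.38% of all genes were called (2.02% lower), and 3 of the 10 in the deletion, where 1.03% were called (0.512% lower). The log2 fold changes of the 10 genes equalled statistic times SE in all 20 cases, and their p-values in the deletion had no such disagreement.

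**Figure D5:**
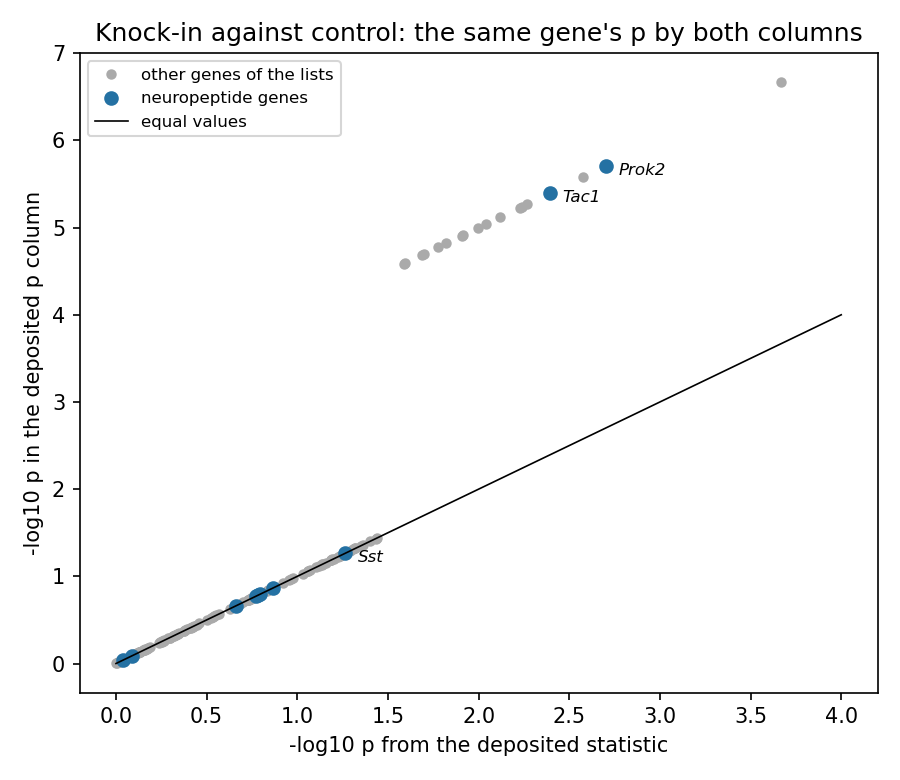
Knock-in against control: -log10 of the p in the deposited p column (y axis) against -log10 of the p that the deposited statistic gives (x axis), for the 10 neuropeptide genes (blue) and the other tested genes of the lists (grey), with a line of equal values. Tac1 and Prok2 lie 3 units above the line, while Sst and the other neuropeptide genes lie on it.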

How the data were processed

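RNA was taken from embryonic mouse cortex and sequenced after mRNA capture from 50 ng of total RNA, per the labels' protocols. STAR 2.7.9a, Bowtie2 2.4.4 and cutadapt stand in the submitters' processing notes, as do the builds mm9 and mm10, all without roles, and how reads were counted was not given in the sources used here. Per the file headers and the readme sheet, the authors deposited the log2 fold changes with SE, the Wald statistic (a score), the raw and adjusted p-values and baseMean (a signal, the mean normalised count), and DESeq2 is named for the statistic. Depth per library is unknown. The 24 deposited columns headed FPKM hold a random multiple of baseMean and were not used.

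P-values were recomputed from the statistic (2-sided normal) and adjusted by Benjamini-Hochberg over the genes with a deposited adjusted p, because deposited p and statistic disagreed in the knock-in. Group means solve baseMean and both fold changes for equal group sizes. The dispersion is what the SE leaves after counting error at equal depth. Simulated counts of 500 genes gave levels and dispersions within 5% in 100% of genes. The dispersion was given and not fitted there, so this checks the arithmetic and not the accuracy of the CVs. A simulated deletion comparison (18952 genes) recovered 50% of 1.5-fold, 82.5% of 2-fold and 95.7% of 4-fold changes. A simulated knock-in comparison (21222 genes) recovered 49.3%, 61.5% and 90.7%. Both drew normal errors from the SEs of all genes (median 0.14 in the deletion, against 0.47 for the 10 genes). The shares recovered therefore do not apply to the 10. The members and lists were chosen with earlier results of these data known. Named genes were the 10, then list genes past the threshold, the 3 best counted per peptide list, the receptors of called members and defining cell markers. Positions and exon lengths came from GENCODE M21 (mm10), promoters from RefSeq. Of genes outside this rule, Oprm1, Oprk1, Oprd1, Pcsk1, Pcsk1n, Npy1r, Ntsr1, Sstr4, Trhde, Tac2, Gal, Adora2a, Ebf1, Hmx2, Six6 and Gbx2 were chosen after their values were seen. So were Barhl1, Nr5a1, Foxp2, Gad1 and Gad2. The labels number the libraries of a genotype but name no animals, so p-values measure the spread between these libraries. The tools were matplotlib 3.10.9, scipy 1.17.1, pandas 2.3.3 and numpy 2.4.6 under Python 3.11.15.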

Additional observations from a re-analysis of the deposited data

How the results depend on the processing

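Of 171 values of single neuropeptide genes under the alternatives, 165 kept direction and side of the threshold, 4 were lost, 2 were gained and 0 changed sign. Every alternative but centring on the median of all genes used the same log2 fold changes. The kept directions were thus set in advance and are no check. Values far from the threshold also kept their side whatever the setting. At an adjusted p of 0.01 the deletion counts fell from 3 to 0 for the neuropeptide genes, from 4 to 2 for the peptide pathway lists and from 12 to 4 for the cell marker lists. Adjusted over every gene with a statistic, Prok2 (adjusted p = 0.0821 by the Wald test) and Scg2 were lost in the deletion and 5 cell markers were called, Sp8, Dlx2, Dlx5, Flt1 and Col1a2. The deposited adjusted p added Gbx2 there, for 13 cell markers. When genes under a mean normalised count of 50 were dropped, which leaves out Trh, Prok2 and Pdyn by construction, 1 neuropeptide gene was called in the deletion (also 1 with adjustment over all genes, an alternative added later with the data known) and the median was -0.20. In the knock-in the authors' deposited adjusted p gave 2 neuropeptide genes in place of 0, 5 peptide pathway genes and 11 cell markers, and a threshold of 0.1 gave 1 peptide pathway gene, Scg2. Of those 11, Foxp2, Gad1, Dlx1 and Dlx2 have deposited knock-in log2 fold changes of 1.43, 1.67, 1.55 and 0.47. Statistic times SE gives the opposite sign, at -0.43, -0.67, -0.55 and -0.47. For Gad2 the deposited value is -1.67, and statistic times SE gives -0.67. Across all genes of the knock-in, 25 deposited log2 fold changes differ from statistic times SE.

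No paired analysis was possible because the tables hold comparisons and no values per library, and for the same reason no library could be left out in turn. Depth limits Trh, Prok2 and Pdyn most, where counting error alone gives an SE of 0.24, 0.25 and 0.19 in the deletion.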
